A study of Mus musculus with 33 samples.

Results

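The 9 genes described here are the early growth response genes Egr1, Egr2, Egr3 and Egr4, the orphan nuclear receptor genes Nr4a1, Nr4a2 and Nr4a3, the synaptic gene Arc and the transcription factor gene Npas4. They were taken by symbol from a count table of 24061 genes. The tissue is mouse nucleus accumbens, which belongs to the ventral striatum. All 9 passed the filter on low counts, which kept 14607 genes. The table covers 33 libraries in 6 groups of C57BL/6J mice, and each library is 1 mouse by its title. Germ-free (GF) mice lived without microbes in isolators of an in-house colony and got sterilized food and water. They were given morphine at 20 mg/kg per day for 7 days (GF morphine, 5 mice) or saline (GF saline, 6 mice). Conventionally raised mice, 7 to 9 weeks old and from a commercial supplier, drank an antibiotic and antifungal mixture (Abx) or plain water (H2O). The mixture held vancomycin and bacitracin at 0.5 mg/mL each, neomycin at 2 mg/mL and pimaricin at 1.2 µg/mL, and the drinks began 2 weeks before the injections and went on throughout. These mice formed the groups Abx morphine (5 mice), Abx saline (6), H2O morphine (5) and H2O saline (6), with the same morphine schedule, and the GF mice were matched to them in age. Whole cages were assigned to a drink, and neither cages nor sequencing batches are named in the labels. Germ-free status and housing facility cannot be told apart. The comparisons ask how a missing or depleted microbiome, and repeated morphine, go with the levels of genes that neurons switch on when they are active.

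As background, these genes are transcribed within minutes of synaptic or receptor stimulation, when calcium and kinase signals act on factors already bound at their promoters, such as CREB at cyclic AMP response elements (CRE), serum response factor at CArG boxes and MEF2 proteins at their own sites. The EGR proteins are zinc-finger transcription factors, and the NR4A proteins are nuclear receptors that act without a known classical hormone. Npas4 is a factor of the basic helix-loop-helix PAS family that responds closely to calcium entry, and Arc is a protein of dendrites that promotes removal of AMPA receptors from synapses. In the striatum the genes are known to respond in medium spiny neurons to dopamine, to glutamate input and to addictive drugs.

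Promoter sequence is shown for the NR4A genes and Egr2. Of the 9 genes, Nr4a3, Egr2 and Nr4a1 had the largest called differences between GF saline and H2O saline mice, and Nr4a2 had the widest spread within groups. RefSeq windows on GRCm38.p6 were matched by symbol for 6 of the 9 genes (10 windows, 5 of them alternative starts of Egr2), and the 250 bases before each start were searched on both strands. Windows on the chromosome that carries Egr1 were left out of the match, so the 10 windows hold none of Egr1. No window was matched for Egr3 and Arc. Capitals mark the CRE core TGACG (or its reverse complement CGTCA), the CArG box and the MEF2 box, and each sequence runs 5′ to 3′ on the gene's strand. The windows are chr4:48045055-48045304 (Nr4a3, plus strand), chr15:101266596-101266845 (Nr4a1, plus), chr2:57124004-57124253 (Nr4a2, minus) and chr10:67537619-67537868 (the third start of Egr2, plus).
Nr4a3: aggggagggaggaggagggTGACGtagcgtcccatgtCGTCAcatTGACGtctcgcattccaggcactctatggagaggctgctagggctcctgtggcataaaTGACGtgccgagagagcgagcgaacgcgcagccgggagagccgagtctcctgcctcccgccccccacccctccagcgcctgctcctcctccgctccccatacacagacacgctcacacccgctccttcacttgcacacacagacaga
Nr4a1: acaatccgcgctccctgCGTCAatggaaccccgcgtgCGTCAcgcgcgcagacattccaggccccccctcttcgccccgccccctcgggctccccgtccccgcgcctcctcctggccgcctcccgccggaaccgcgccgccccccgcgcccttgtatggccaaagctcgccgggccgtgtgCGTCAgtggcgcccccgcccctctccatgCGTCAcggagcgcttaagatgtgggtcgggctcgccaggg
Nr4a2: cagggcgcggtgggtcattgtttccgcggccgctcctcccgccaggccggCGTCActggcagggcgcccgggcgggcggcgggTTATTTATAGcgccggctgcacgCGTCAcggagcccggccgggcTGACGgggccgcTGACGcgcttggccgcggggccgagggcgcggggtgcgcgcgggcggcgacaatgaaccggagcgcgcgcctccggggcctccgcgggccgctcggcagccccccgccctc
Egr2: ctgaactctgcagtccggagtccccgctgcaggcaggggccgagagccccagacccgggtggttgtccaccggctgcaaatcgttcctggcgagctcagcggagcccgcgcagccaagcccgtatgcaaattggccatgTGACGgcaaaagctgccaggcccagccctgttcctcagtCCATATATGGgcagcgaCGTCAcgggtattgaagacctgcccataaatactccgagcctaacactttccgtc
Each NR4A window held 4 cores, while 0.137% of the 32851 RefSeq windows of this length held 4 or more. The windows of Egr4 and Npas4 and the Egr2 window shown held 2 each, and 3.9% of all windows held 2 or more. At least 1 core was found in 17.8%. The Egr2 window also held a CArG box between its cores, a motif found in 1.47% of windows, and the Nr4a2 window held a MEF2 box, found in 2.92%. None of the 10 windows held the full element TGACGTCA, which 1.55% of all windows held and which overlaps the core. Of the 5 Egr2 windows 2 held 0 cores and 1 of those 2 held 0 CArG boxes, while the other 3, which overlap each other, held the same 2 cores and the box. These matches describe letters in a window, not binding in this tissue.

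Gene counts summed to 5.86 to 7.30 M reads in GF morphine libraries, 4.87 to 15.3 M in GF saline libraries and 9.36 to 15.3 M in conventional libraries. All 14 marker genes of medium spiny neurons, the main neurons of the labelled tissue, were detected in every library. Markers of cortical glutamatergic neurons varied widely. All 10 of that list were detected in every Abx and every H2O saline library, 6 in every GF morphine and 6 in every GF saline library and 8 in every H2O morphine library, with Neurod2 and Neurod6 at 0 in some GF morphine, GF saline and H2O morphine libraries. The 10 genes of that list summed to 60.7 to 80.0 CPM (gene counts relative to library size) in GF morphine, 66.6 to 414 in GF saline, 219 to 1075 in Abx morphine, 148 to 1614 CPM in Abx saline, 62.2 to 1290 CPM in H2O morphine and 60.7 to 777 in H2O saline libraries. GF saline replicate 1 stood apart from the other GF libraries in depth (15.3 M) and in this sum (414 CPM, against 66.6 to 136 CPM in the other 5 GF saline libraries). In bulk tissue, fewer cells of a type and less RNA per cell cannot be told apart.

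In saline mice, 4 of the 9 genes were higher in GF than in H2O mice at an adjusted p under 0.05, namely Nr4a3, Nr4a1, Egr2 and Egr3, and 0 were lower. Many genes differed in this comparison: 32.9% of all genes tested were called, 18% of all genes higher and 14.9% lower. The median log2 fold change was 0.49 over the 9 genes and 0.01 over all genes tested. Between Abx saline and H2O saline mice 0 of the 9 were called, with 0.116% of all genes called. In that comparison 2 of the 9 (Nr4a3 and Nr4a1) had an unadjusted p under 0.05, as did 1760 genes in all, and DESeq2 and limma voom each called 1 of the 9, Nr4a3, where they called 100 and 180 genes in all. Between GF saline and Abx saline mice 3 of the 9 were called, all higher in GF mice (Nr4a3, Egr2 and Egr3), with 27.4% of all genes called, 14.6% higher. These comparisons share their saline groups. Markers of other cells and regions moved in the first of them too. In GF saline against H2O saline mice 3 of the 5 tested genes of a list of 11 hypothalamus and pituitary genes (Gh, Prl and Irs4) were higher and 0 lower, with a median of 2.13. The list summed to 9.95 to 114 CPM in GF saline libraries and 9.60 to 51.8 CPM in H2O saline libraries, and Gh and Prl were at 0 in some libraries of both groups. Of 6 endothelial genes 4 were lower and 0 higher, among them Cldn5 (-0.85 ± 0.11), and they summed to 116 to 197 CPM in GF saline libraries, all below the 202 to 225 CPM of H2O saline libraries. Of 6 astrocyte genes 2 were higher, of 4 septum genes 1 and of 6 oligodendrocyte genes 1, each with 0 lower, 2 of the 14 genes of medium spiny neurons were lower, and 0 of 6 microglia genes and 0 of the 10 cortical genes were called. In GF saline against Abx saline mice 3 hypothalamus and pituitary genes, 3 microglia and 3 astrocyte genes were higher, and 2 endothelial, 2 cortical and 1 of the septum genes were lower, with 1 oligodendrocyte gene higher. The part of these markers in the differences of the 9 genes was not tested, other than for the cortical list. Log2 fold changes are given ± standard error (SE), p-values are adjusted over all genes tested, and levels are CPM scaled by TMM factors, as mean ± SD.

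**Figure D1:**
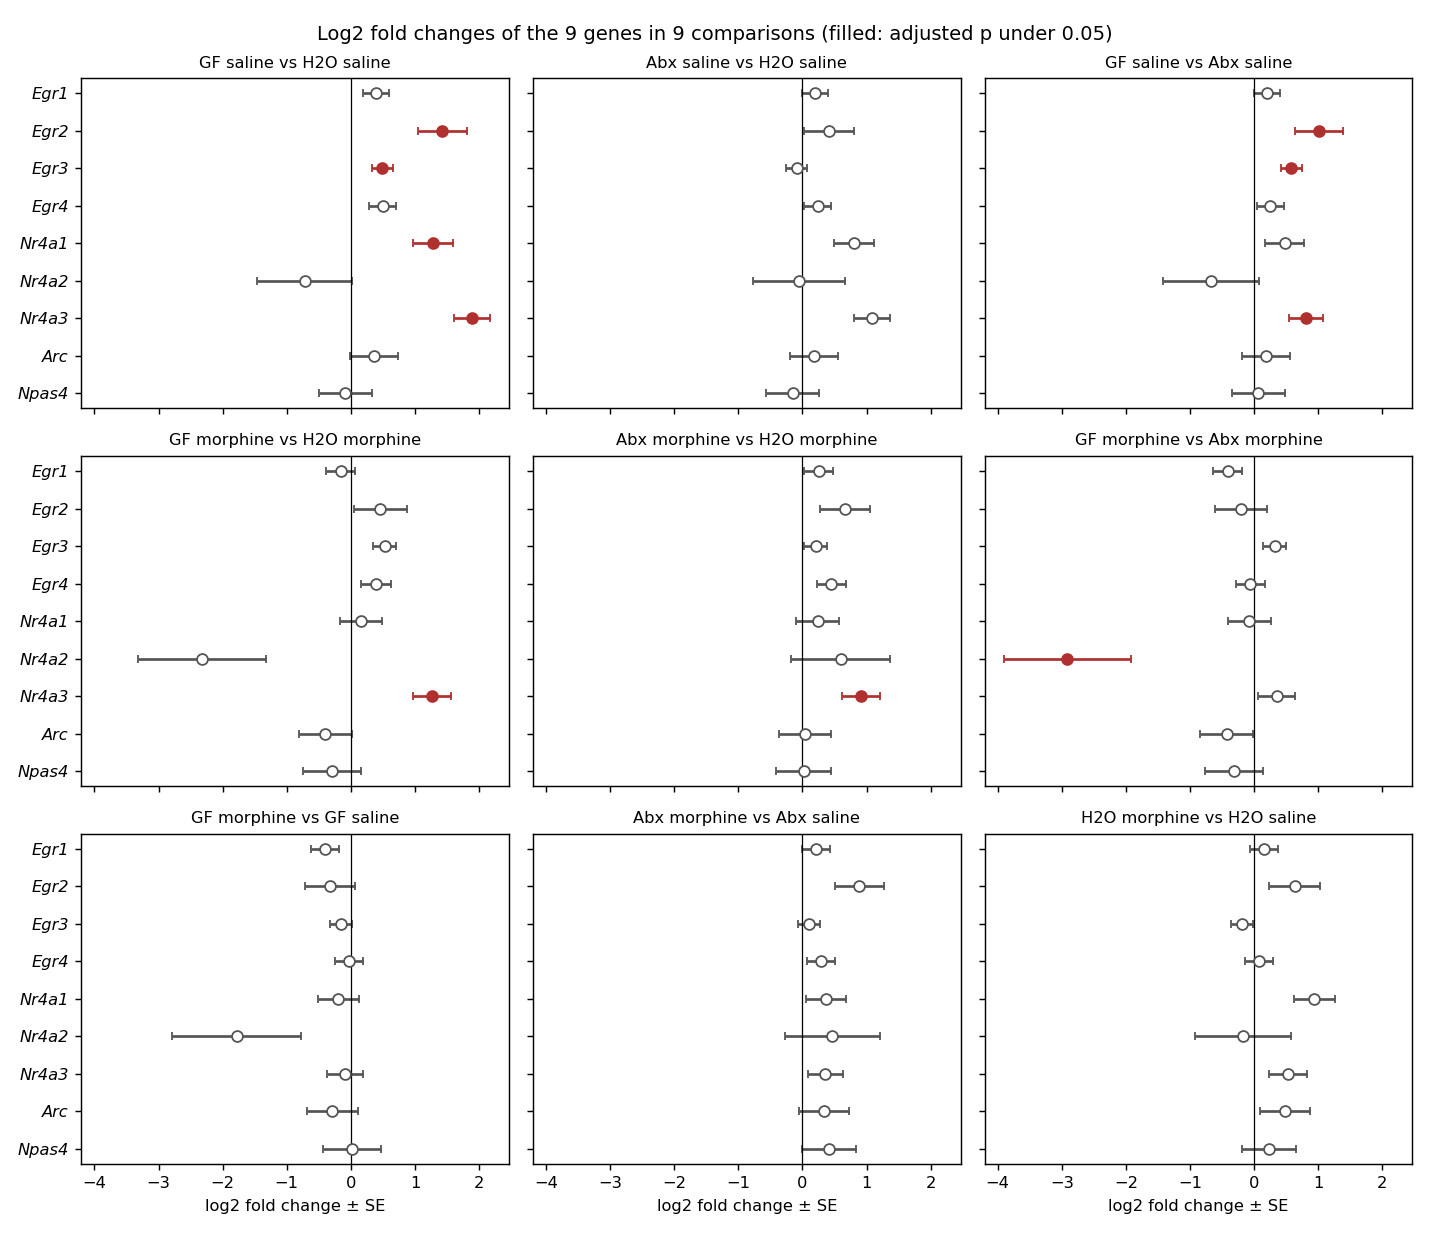
Log2 fold changes of the 9 genes (points, with bars of ± 1 SE) in the 9 pairwise comparisons, 1 panel each, filled red where the adjusted p was under 0.05. Nr4a3 lies to the right of 0 in all 6 comparisons of microbiome states and is filled in 4 of them, and no point is filled in the bottom panels of morphine against saline.

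Nr4a3, a nuclear receptor gene also known as Nor1, stood highest in GF mice and lowest in H2O mice. The 5 GF morphine mice had 47.3, 26.4, 32.01, 11.9 and 27.6 CPM, and GF saline mice ranged from 23.4 to 36.5 CPM (median 32.6). Abx morphine mice had 21.7, 23.3, 22.6, 27.99 and 18.4 CPM, and Abx saline mice ranged from 15.2 to 24.8 CPM (median 16.7). H2O morphine mice had 9.06, 11.5, 16.5, 16.8 and 6.13 CPM, and H2O saline mice ranged from 3.03 to 14.1 CPM (median 8.54). No GF saline or Abx saline mouse fell into the range of H2O saline mice, and no Abx morphine mouse into that of H2O morphine mice. The group means ran from GF saline (30.8 ± 5.85 CPM) over GF morphine (29.1 ± 12.7), Abx morphine (22.8 ± 3.47), Abx saline (17.8 ± 3.63) and H2O morphine (12.002 ± 4.66) down to H2O saline (8.42 ± 4.398). Of the 5 neighbouring steps in that order, 2 exceeded the larger SD of the neighbours, the one between Abx morphine and Abx saline and the one between Abx saline and H2O morphine.

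The difference of Nr4a3 between GF saline and H2O saline mice was 1.88 ± 0.28 (3.69-fold, adjusted p = 1.8e-05). It was 0.80 ± 0.27 between GF saline and Abx saline mice (1.74-fold, adjusted p = 0.0242), where leaving out Abx saline replicate 1 or 2 raised the adjusted p to 0.0502 and 0.0508. Between Abx saline and H2O saline mice it was 1.08 ± 0.28 (2.12-fold, adjusted p = 0.119), with 6 of 6 Abx mice above every H2O mouse. That value passed the threshold with DESeq2 (adjusted p = 0.0316) and with limma voom (adjusted p = 0.0219), tools that called 100 and 180 genes in that comparison against 17 by edgeR, and the adjusted p ranged from 0.0219 to 0.157 over the alternatives. The same gene was the only one of the 9 called among morphine mice against H2O morphine. It differed by 1.27 ± 0.30 between GF morphine and H2O morphine mice (2.405-fold, adjusted p = 0.0115, with 4 of 5 GF mice above every H2O mouse), where 5.86% of all genes were called, 3.2% higher. It differed by 0.91 ± 0.29 between Abx morphine and H2O morphine mice (1.88-fold, adjusted p = 0.0405, 5 of 5 above), where 10.3% of all genes were called, 4.57% higher. In the first of these comparisons 2 hypothalamus and pituitary genes and 1 microglia gene were higher and 1 cortical gene was lower, with 1 endothelial gene called in each direction, and in the second 5 microglia and 2 astrocyte genes and 1 gene each of the hypothalamus and endothelium lists were lower. Their part was not tested, other than for the cortical list. The call in Abx morphine mice was lost when any of 7 of the 10 mice was left out (H2O morphine replicate 2, 3 or 6, or Abx morphine replicate 1, 2, 3 or 4), with adjusted p from 0.0627 to 0.124, and over the other alternatives its adjusted p ran from 0.00179 to 0.133. A fit of only the GF and H2O morphine mice gave an adjusted p = 0.0614 for the GF difference (adjusted p from 0.00177 to 0.0614 over the alternatives).

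Nr4a1, which codes for the receptor Nur77, was lowest in H2O saline mice. The 5 GF morphine mice had 212, 58.3, 120.5, 129 and 133 CPM, and GF saline mice ranged from 77.5 to 228 CPM (median 134). Abx morphine mice had 139, 163, 122, 140.4 and 125 CPM, and Abx saline mice ranged from 67.6 to 143 CPM (median 110.4). H2O morphine mice had 98.8, 136, 147, 171 and 32.2 CPM, and H2O saline mice ranged from 36.2 to 112 CPM (median 51.5). Each pair of groups compared here overlapped, and 4 of 6 GF saline mice lay above every H2O saline mouse. Nr4a1 averaged 131 ± 54.7 CPM in GF morphine, 138 ± 16.1 in Abx morphine and 117 ± 53.9 CPM in H2O morphine mice. GF saline mice averaged 149 ± 59.1 CPM and H2O saline mice 61.4 ± 28.7 CPM, a log2 difference of 1.29 ± 0.31 (2.44-fold, adjusted p = 0.00231). The difference between Abx saline and H2O saline mice was 0.81 ± 0.31 (adjusted p = 0.278) and that between GF saline and Abx saline mice 0.48 ± 0.30 (adjusted p = 0.245). In the order of the group means, the step between Abx saline (107 ± 24.6 CPM) and H2O saline mice was the only one larger than the SD of its neighbours.

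**Figure D2:**
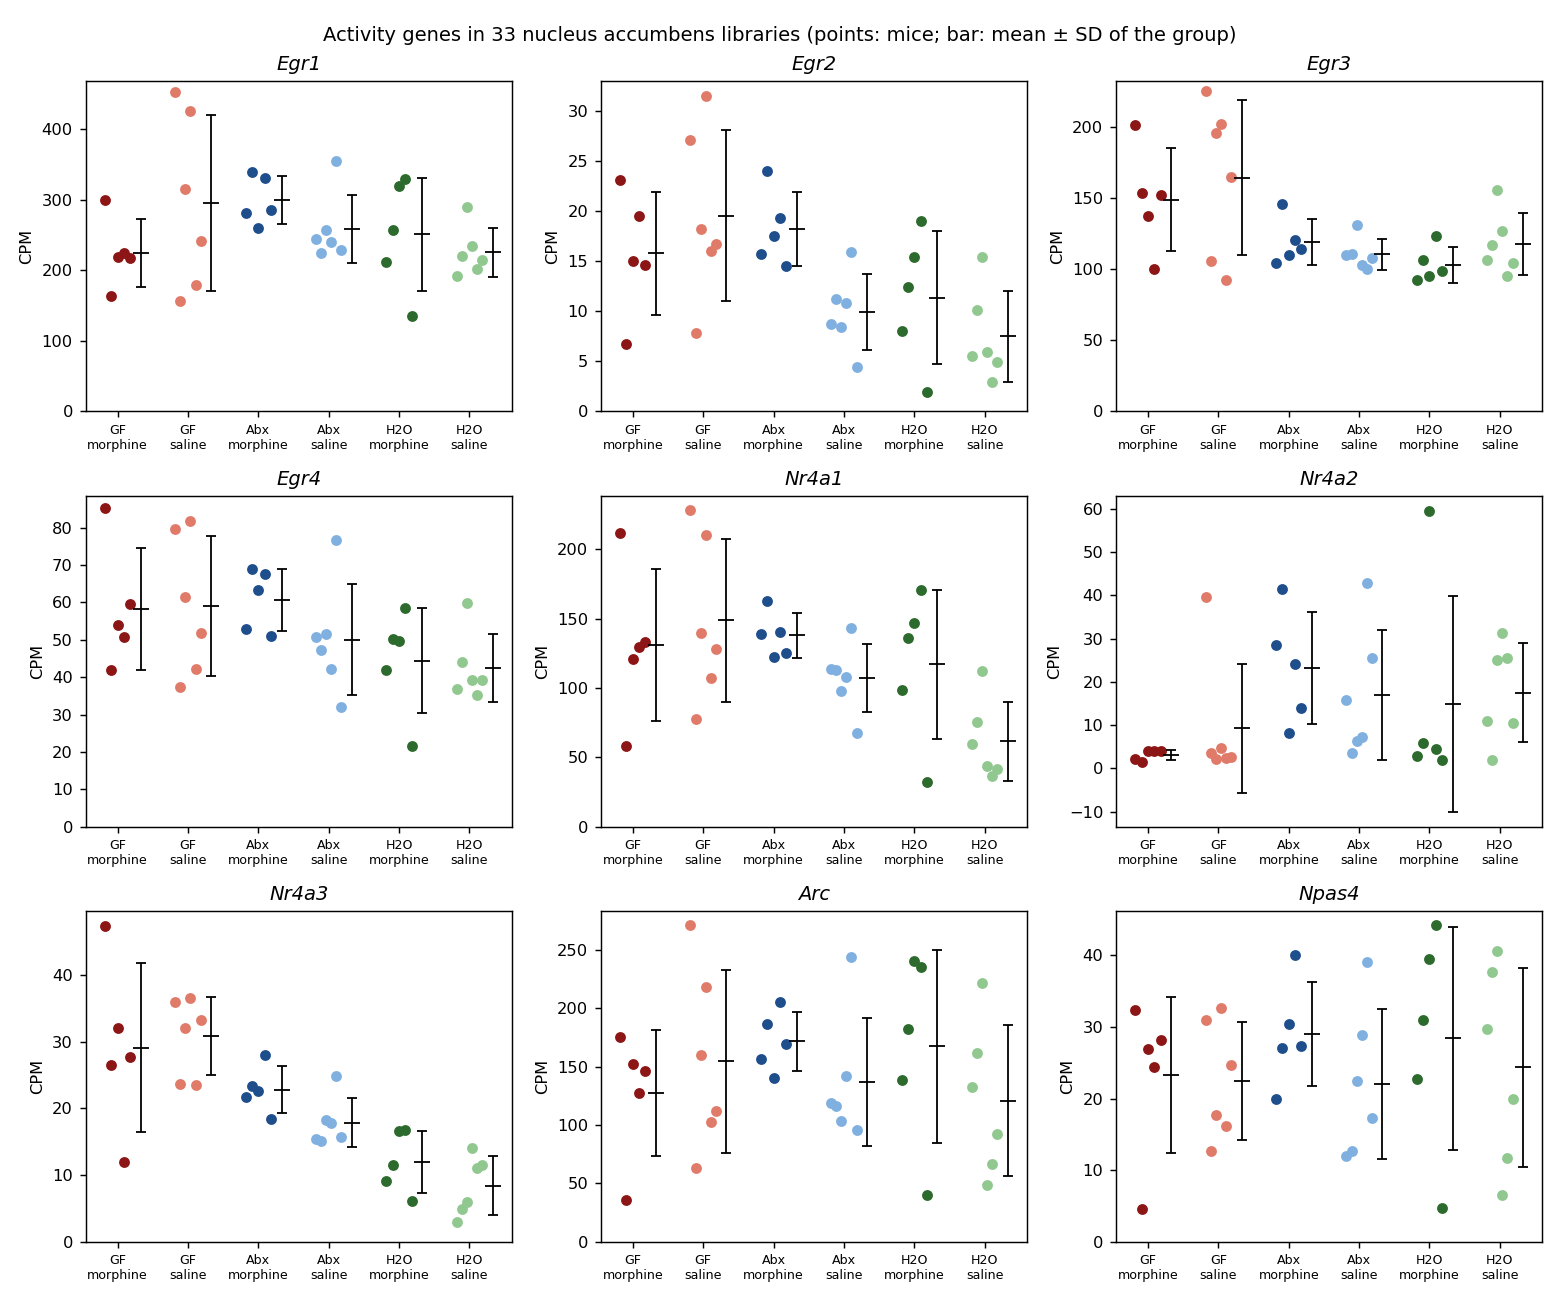
CPM of each gene (linear axes, 1 panel a gene) in every library, by group from GF morphine at the left to H2O saline at the right. Each point is 1 mouse, and the bar beside the points is the group's mean ± SD, which for Nr4a2 reaches below 0 in GF saline and H2O morphine because 1 mouse of each (39.7 and 59.5 CPM) lies far above the rest.

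Nr4a2, known from midbrain dopamine neurons and, in the cortex, from the claustrum and deep layers, had the largest pooled SD within groups of the 9. Within GF morphine mice alone its log2 SD was 0.660, below that of 5 others (Npas4, Arc, Nr4a3, Egr2 and Nr4a1). The 5 GF morphine mice had 2.09, 1.47, 3.98, 4.03 and 3.92 CPM, and GF saline mice ranged from 2.12 to 39.7 CPM (median 3.16). Abx morphine mice had 28.6, 41.4, 8.15, 24.2 and 14.0 CPM, and Abx saline mice ranged from 3.61 to 42.9 CPM (median 11.6). H2O morphine mice had 2.84, 5.90, 59.5, 4.52 and 1.99 CPM, and H2O saline mice ranged from 1.84 to 31.4 CPM (median 18.01). Nr4a2 averaged 3.10 ± 1.23 CPM in GF morphine, 9.23 ± 15.0 in GF saline, 23.3 ± 12.96 in Abx morphine, 16.9 ± 15.0 CPM in Abx saline, 14.9 ± 24.9 CPM in H2O morphine and 17.5 ± 11.4 CPM in H2O saline mice. The highest and the lowest of the 33 libraries differed 40.5-fold, and the lowest, GF morphine replicate 2, held 10 reads of this gene. The pooled SD within groups was 1.39 on the log2 CPM scale, larger than that of 99.6% of the 14607 genes, and in the order of group means no step exceeded the larger SD of its neighbours.

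The level of Nr4a2 followed the cortical marker list. Within groups, in 1 slope shared by the 6 groups, its log2 CPM rose by 1.04 ± 0.06 per log2 unit of the mean level of the 10 cortical markers (adjusted p = 1.57e-15). This was the 10th smallest p of 14607 genes, while 11.8% of all genes had a called slope, 7.37% above 0. All GF morphine libraries, GF saline replicates 2 to 6, H2O morphine replicates 2, 5 and 6 and H2O saline replicate 4 had a cortical list sum of at most 136 CPM, and none of them had more than 4.81 CPM of Nr4a2. Among the GF libraries named here Nr4a2 did not rise steadily with the mean cortical level. GF morphine replicate 2 had the highest level of its group (0.419) and the least Nr4a2 (1.47 CPM). GF saline replicate 2 had the lowest level of its group (-0.265) and 3.61 CPM, above replicates 3, 5 and 6 but below replicate 4 (4.81 CPM). Whether the shared slope holds at such low levels was not tested, and the covariate values of GF groups given below rest on it. GF saline replicate 1 and H2O morphine replicate 4, the libraries with the highest cortical sum of their groups (414 and 1290 CPM), also had the highest Nr4a2 levels of their groups. Between GF morphine and Abx morphine mice, whose cortical sums did not overlap, Nr4a2 was lower by 2.91 ± 0.99 on the log2 scale (0.133-fold, adjusted p = 0.0264, with 5 of 5 GF mice below every Abx mouse), the only call among the 9, where 28% of all genes were called, 13.3% lower. The call was lost without Abx morphine replicate 2 or GF morphine replicate 1 or 2 (adjusted p from 0.0503 to 0.0629). The call was also lost with limma voom (-2.893, adjusted p = 0.0528). With the cortical list level as a covariate the difference between GF morphine and Abx morphine mice turned to 1.10 ± 0.40 (adjusted p = 0.0669). It was below 0 in the other alternatives, and the adjusted p ran from 0.000623 to 0.0669 over all of them. The covariate value extends the slope across the gap between the 2 groups' cortical sums. In the same fit the difference of GF saline against Abx saline mice became 1.20 ± 0.27 (adjusted p = 0.00294) in place of -0.67 ± 0.75 (adjusted p = 0.533, and up to 0.584 over the alternatives). The difference between GF saline and H2O saline mice was -0.72 ± 0.74 (adjusted p = 0.478), it was -2.46 (adjusted p = 0.0222) without GF saline replicate 1, and with the cortical covariate its sign turned, to 0.55 ± 0.26 (adjusted p = 0.111). In that fit the sign of Nr4a2 turned in 8 of 12 contrasts, more than for any other of the 9 genes. Without that library the difference from Abx saline mice was -2.40 (adjusted p = 0.0295). The difference between Abx morphine and H2O morphine mice was 0.59 ± 0.77 (adjusted p = 0.692) and became 2.58 (adjusted p = 0.0323) without H2O morphine replicate 4.

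**Figure D3:**
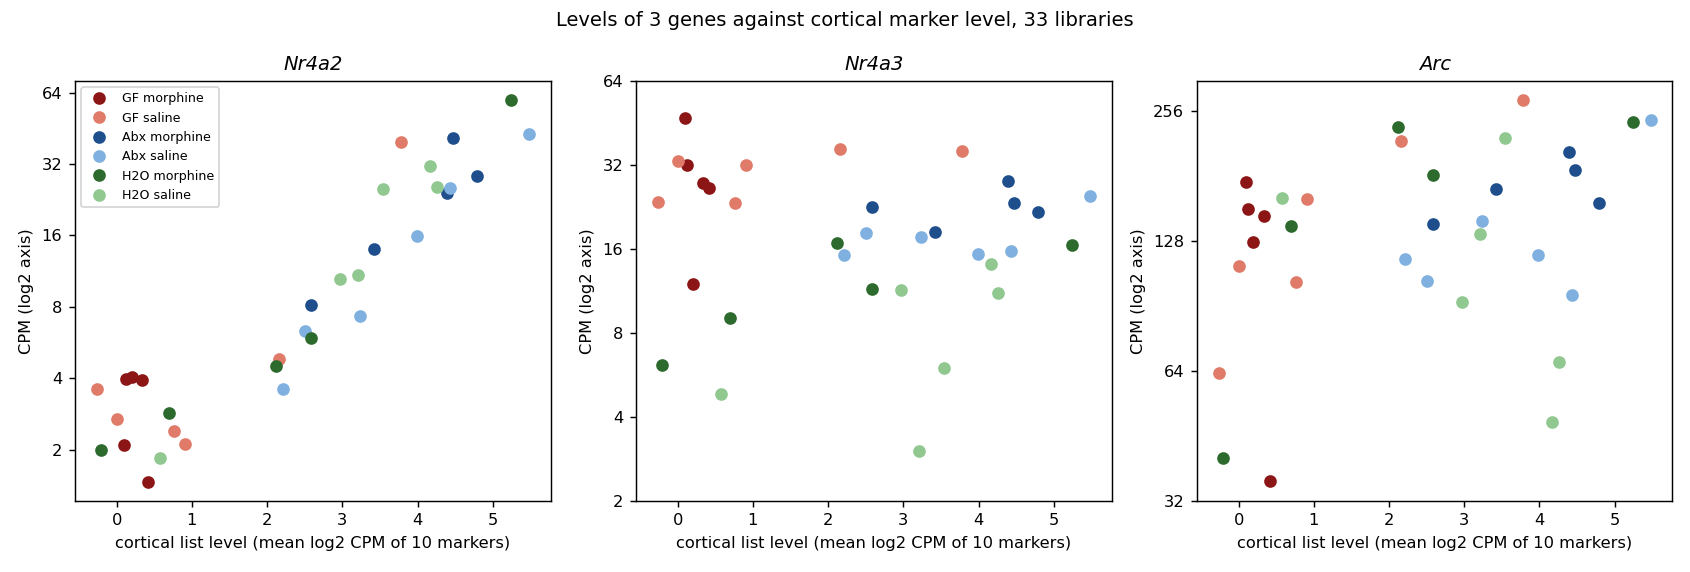
CPM of Nr4a2, Nr4a3 and Arc (log2 axes) against the mean log2 CPM of the 10 cortical markers in the same library, 1 point a library, coloured by group. Nr4a2 climbs with the cortical level over the 33 libraries (1 shared slope of 1.04 per log2 unit). It does not climb among the GF morphine libraries (1.47 to 4.03 CPM) or GF saline replicates 2, 3, 5 and 6 (2.12 to 3.61 CPM). For Nr4a3 every GF library but GF morphine replicate 5 (11.9 CPM) stands above every H2O library (at most 16.8 CPM).

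The other members followed the cortical list less steeply or not past the threshold. Egr1 rose by 0.18 ± 0.04 per log2 unit (adjusted p = 0.00251) and Nr4a3 by 0.18 ± 0.06 (adjusted p = 0.0437). The slope of Nr4a3 was lost without any 1 of 16 libraries (replicates 2, 3 and 6 of GF morphine, 1, 2 and 4 of GF saline, 4 and 5 of Abx morphine, 2 and 5 of Abx saline, 2, 4 and 6 of H2O morphine, and 4, 6 and 8 of H2O saline), with adjusted p from 0.0502 to 0.11. The slopes of Egr2, Egr3, Egr4, Nr4a1, Arc and Npas4 did not pass (adjusted p from 0.0822 to 0.505), except that of Arc without H2O saline replicate 4 or 6 (adjusted p = 0.0238 and 0.0401) and that of Egr4 without H2O saline replicate 4 or Abx saline replicate 6 (adjusted p = 0.044 and 0.0421). With the cortical list level as a covariate, the calls of Nr4a3, Nr4a1, Egr2 and Egr3 between GF saline and H2O saline mice stood, at 2.23 ± 0.27 for Nr4a3 (adjusted p = 2.17e-06) and 1.49 ± 0.31 for Nr4a1 (adjusted p = 0.000842). In that fit Egr1 (0.66 ± 0.17, adjusted p = 0.00638) and Egr4 (0.69 ± 0.21, adjusted p = 0.0138) were called as well. The difference of Nr4a3 was 1.66 ± 0.29 between GF morphine and H2O morphine mice (adjusted p = 0.00177) and 1.02 ± 0.33 between GF morphine and Abx morphine mice (adjusted p = 0.0399), while that between Abx morphine and H2O morphine mice no longer passed (0.64 ± 0.27, adjusted p = 0.133). Without the covariate the difference between GF morphine and Abx morphine mice was 0.35 ± 0.29 (adjusted p = 0.371). The covariate value for these groups extends the slope of Nr4a3 across the gap between their cortical levels, which did not overlap.

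Egr2, known also as Krox20, a regulator of myelin genes in Schwann cells, was higher in GF saline mice than in both other saline groups. The 5 GF morphine mice had 23.1, 6.75, 15.1, 19.5 and 14.7 CPM, and GF saline mice ranged from 7.82 to 31.6 CPM (median 17.5). Abx morphine mice had 15.7, 24.0, 17.6, 19.4 and 14.5 CPM, and Abx saline mice ranged from 4.44 to 15.9 CPM (median 9.82). H2O morphine mice had 8.01, 12.5, 15.5, 19.1 and 1.91 CPM, and H2O saline mice ranged from 2.91 to 15.4 CPM (median 5.78). Egr2 averaged 15.8 ± 6.14 CPM in GF morphine, 19.6 ± 8.50 in GF saline, 18.2 ± 3.71 in Abx morphine, 9.93 ± 3.80 CPM in Abx saline, 11.4 ± 6.67 CPM in H2O morphine and 7.49 ± 4.55 in H2O saline mice. In the saline groups 5 of 6 GF mice lay above every H2O mouse and 5 of 6 above every Abx mouse. The difference between GF saline and H2O saline mice was 1.42 ± 0.38 (2.68-fold, adjusted p = 0.00536). The difference between GF saline and Abx saline mice was 1.01 ± 0.37 (2.01-fold, adjusted p = 0.0434). This call was lost when any of 9 of the 12 mice was left out (Abx saline replicate 1, 2, 3, 4 or 6, or GF saline replicate 1, 3, 4 or 6), with adjusted p from 0.0554 to 0.116, and under 4 alternatives with adjusted p from 0.0507 to 0.0727 (adjusted p from 0.0158 to 0.0727 over all alternatives).

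Egr3, also known for its part in the development of muscle spindles, differed by less between groups, and its pooled SD within groups was the smallest of the 9 genes (0.311 on the log2 CPM scale). The 5 GF morphine mice had 201, 153, 137, 100.1 and 152 CPM, and GF saline mice ranged from 92.4 to 225 CPM (median 179.9). Abx morphine mice had 104, 146, 110.2, 120.3 and 114 CPM, and Abx saline mice ranged from 99.97 to 131 CPM (median 109). H2O morphine mice had 92.2, 107, 94.8, 123 and 98.4 CPM, and H2O saline mice ranged from 95.1 to 156 CPM (median 112). Egr3 averaged 149 ± 36.3 CPM in GF morphine, 164 ± 54.4 in GF saline, 119 ± 16.1 in Abx morphine, 110.4 ± 10.9 CPM in Abx saline, 103 ± 12.5 CPM in H2O morphine and 118 ± 21.7 CPM in H2O saline mice. GF saline mice covered the widest range, with 4 of 6 above every H2O saline mouse and 1 of 6 below every one. The difference between GF saline and H2O saline mice was 0.49 ± 0.16 (1.40-fold, adjusted p = 0.0213). It did not pass in a fit of only these groups (adjusted p = 0.0785; adjusted p from 0.004 to 0.229 over the alternatives) or without any 1 of H2O saline replicate 8 and GF saline replicates 1, 3 and 4 (adjusted p from 0.0566 to 0.0726). The difference between GF saline and Abx saline mice was 0.58 ± 0.16 (1.49-fold, adjusted p = 0.00912). Among morphine mice the difference between GF and H2O was 0.53 ± 0.18 (adjusted p = 0.0727), with 4 of 5 GF mice above every H2O mouse. It passed with DESeq2 (adjusted p = 0.0452), with limma voom (adjusted p = 0.0133) and without GF morphine replicate 5 (adjusted p = 0.0416), where DESeq2 called 1199 and limma voom 1192 genes in all, over a range of adjusted p from 0.0133 to 0.128 in the alternatives.

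Egr1, commonly used as a marker of neuronal activity, ranged from 157 to 452 CPM in GF saline mice and from 192 to 289 CPM in H2O saline mice. Its difference was 0.39 ± 0.21 (adjusted p = 0.139), with 3 of 6 GF mice above every H2O mouse and 2 of 6 below every one. Egr4, also known as NGFI-C, ranged from 37.3 to 81.7 CPM in GF saline mice and from 35.1 to 59.9 CPM in H2O saline mice. Its difference was 0.50 ± 0.21 (adjusted p = 0.07). Leaving out H2O saline replicate 5 or GF saline replicate 2 or 5 moved Egr4 past the threshold (adjusted p from 0.032 to 0.04), and leaving out GF saline replicate 2 did so for Egr1 (adjusted p = 0.0419). Egr1 averaged 225 ± 48.5 CPM in GF morphine, 295 ± 125 in GF saline, 299 ± 33.9 in Abx morphine, 259 ± 48.5 CPM in Abx saline, 251 ± 80.4 CPM in H2O morphine and 225 ± 34.7 in H2O saline mice. Egr4 averaged 58.3 ± 16.4, 59.0 ± 18.7, 60.7 ± 8.31, 50.1 ± 15.0, 44.4 ± 14.1 and 42.4 ± 9.13 CPM in the same groups and order. For Egr1, Egr2, Egr3 and Egr4 no step between neighbours in the order of group means was larger than the SD of the neighbours.

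Arc and Npas4, both closely tied to synaptic activity, showed no called difference in any comparison. Arc averaged 127 ± 54.2 CPM in GF morphine, 155 ± 78.2 in GF saline, 172 ± 25.4 CPM in Abx morphine, 137 ± 54.9 CPM in Abx saline, 168 ± 82.6 CPM in H2O morphine and 121 ± 64.7 CPM in H2O saline mice. Npas4 averaged 23.3 ± 10.9, 22.5 ± 8.24, 29.0 ± 7.29, 22.1 ± 10.4, 28.4 ± 15.6 and 24.4 ± 13.9 CPM in the same groups and order. Neighbouring means differed by less than the larger SD throughout. The log2 difference between GF saline and H2O saline mice was 0.37 ± 0.38 for Arc, with a 95% interval from -0.40 to 1.14, and -0.09 ± 0.41 for Npas4, with an interval from -0.94 to 0.76. The range within H2O saline mice was wide, from 48.8 to 222 CPM for Arc and from 6.48 to 40.6 CPM for Npas4. The value of Nr4a3 in the same comparison (1.88) lay outside both intervals.

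Repeated morphine moved 0 of the 9 genes past the threshold in any microbiome state. Between H2O morphine and H2O saline mice 0 of the 9 were called, and edgeR called 0% of all genes (2222 genes had an unadjusted p under 0.05, and DESeq2 called 332 and limma voom 1325 genes). The largest difference was that of Nr4a1, at 0.93 ± 0.32 (1.91-fold, unadjusted p = 0.00642, adjusted p = 0.163), with 3 of 5 morphine mice above every saline mouse and 1 below every one. Between Abx morphine and Abx saline mice 0 of the 9 were called, with 5.42% of all genes called. All 9 differences were above 0 there, with a median of 0.36 against -0.01 over all genes, and the largest was Egr2 at 0.89 ± 0.38 (1.85-fold, adjusted p = 0.178). In a fit of only these groups Egr2 passed (adjusted p = 0.0338, adjusted p from 0.0338 to 0.213 over the alternatives). Between GF morphine and GF saline mice 0 of the 9 were called, with 0.00685% of all genes called. There 8 of the 9 differences were below 0, with a median of -0.19 against -0.01 over all genes, and Nr4a2 had the widest at -1.78 ± 1.01 (adjusted p = 0.761).

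The difference between the morphine responses of GF and H2O mice was called for 0 of the 9, and edgeR called 0% of all genes (1 of the 9 and 2325 genes had an unadjusted p under 0.05, and DESeq2 called 234 and limma voom 51 genes). Nr4a1 had the smallest p, with a difference of responses of -1.13 ± 0.45 (unadjusted p = 0.0186, adjusted p = 0.222). The difference between the responses of Abx and H2O mice was called for 0 of the 9, with 0.11% of all genes called. Averaged over the 3 microbiome states, morphine against saline was called for 0 of the 9 and for 0.958% of all genes, with the largest average change at Nr4a2 (-0.50) and Egr2 (0.40). DESeq2 and limma voom also called 0 of the 9 in these contrasts and in the H2O and GF morphine comparisons.

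Mice of a group differed from one another in most of these genes at once. Of the 36 pairs of genes, 23 had correlated deviations from their group means over the 33 libraries (Pearson r, two-sided permutation test within groups, adjusted over the 36 pairs). Over the alternatives this count ran from 16 to 23. It was lowest in the 22 libraries of conventional mice alone, where no pair with Egr3 passed (adjusted permutation p at least 0.082). The share of all other gene pairs that would pass was not computed. Whether the count of 23 is particular to these genes was therefore not tested. Egr2 and Nr4a1 varied most alike (r = 0.962, rho = 0.919, permutation p = 1e-05 for both, the smallest that 100000 permutations can give, and r = 0.939 without the 2 libraries farthest from the median). Arc went with Nr4a1 (r = 0.937, rho = 0.908) and with Npas4 (r = 0.928, rho = 0.895), both with permutation p = 1e-05 and r = 0.903 and 0.874 without 2 libraries. Among the 28 pairs that do not hold Nr4a2, 22 passed with a median r of 0.696. Among the 8 pairs with Nr4a2, 1 passed, with Egr1 (r = 0.533, rho = 0.516, permutation p = 0.00636). With the cortical list level taken out this pair had r = -0.163 and rho = -0.144 (adjusted permutation p = 0.629 for r), and in the conventional mice alone r = 0.557 (adjusted permutation p = 0.0691). Nr4a3, the gene called in the most comparisons, had r = 0.165 and rho = 0.233 with Arc (adjusted permutation p = 0.496 for r) and r = 0.115 and rho = 0.21 with Npas4 (adjusted permutation p = 0.634 for r). Its pairs with Egr1 (r = 0.509, adjusted permutation p = 0.0015), Egr4 (r = 0.475, 0.0112) and Egr3 (r = 0.387, 0.0394, but 0.0992 for rho) passed. Those with Egr2, Nr4a1 and Nr4a2 did not. With the cortical list level taken out, the pairs with Egr1, Egr4 and Egr3 had r = 0.306, 0.337 and 0.336 (adjusted permutation p = 0.207, 0.148 and 0.141).

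**Figure D4:**
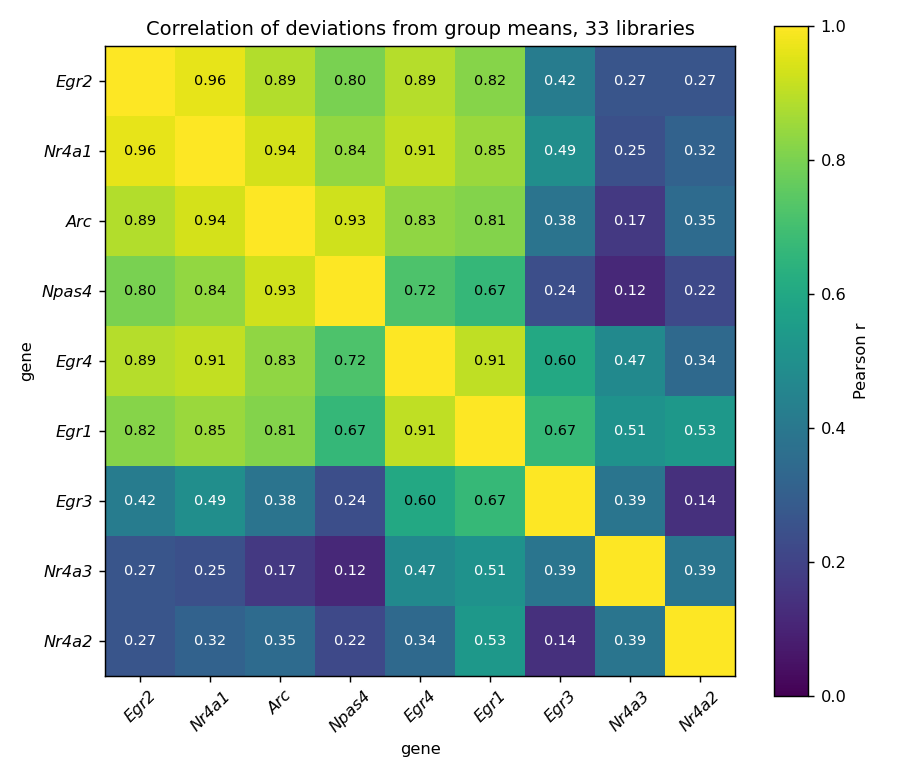
Pearson r of the deviations of log2 CPM from group means for each pair of the 9 genes over 33 libraries, coloured from 0 to 1, with r printed in each cell. Egr2, Nr4a1, Arc, Npas4, Egr4 and Egr1 have r from 0.667 to 0.962 with one another, and pairs with Egr3, Nr4a3 or Nr4a2 reach at most 0.671.

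Single mice stood high or low across the set. GF morphine replicate 1 was the highest of its group for 8 of the 9 genes, as was Abx saline replicate 5 for 8, H2O morphine replicate 5 for 7 and H2O saline replicate 5 for 7. H2O morphine replicate 6 was the lowest of its group for 8, GF morphine replicate 2 for 7 and GF saline replicate 2 for 6. GF morphine replicate 2 had 35.5 CPM of Arc and 4.55 CPM of Npas4, against 127 to 176 CPM and 24.4 to 32.4 CPM in the other GF morphine mice. Yet Nr4a3 stood at 26.4 CPM in that mouse, close to the median of its group (27.6 CPM). In H2O saline mice the 3 libraries with the most Nr4a3 had the least Npas4. Replicates 3, 4 and 5 had 3.03, 4.85 and 5.96 CPM of Nr4a3 with 29.8, 37.7 and 40.6 CPM of Npas4, and replicates 6, 8 and 9 had 14.1, 11.1 and 11.4 CPM of Nr4a3 with 6.48, 11.7 and 19.9 CPM of Npas4. The other groups did not show this order. In each of them the mouse with the most Nr4a3 also had the most Npas4, and over the 33 libraries r was 0.115.

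Egr3 varied with the marker list of medium spiny neurons (14 genes, among them the dopamine receptor genes Drd1a and Drd2). Over the 33 libraries the deviations of Egr3 and of the list's mean log2 CPM correlated with r = 0.854 and rho = 0.833 (permutation p = 1e-05 for both, adjusted p = 9e-05 over 18 relations tested), and r was 0.863 without the 2 libraries farthest from the median. For the other 8 genes r with this list lay between -0.0693 and 0.451, with adjusted permutation p of at least 0.168. The summed level of the list was 5230 to 8389 CPM in GF morphine, 3187 to 9805 in GF saline, 6183 to 8072 in Abx morphine, 4274 to 9215 CPM in Abx saline, 5443 to 8953 CPM in H2O morphine and 7152 to 10203 in H2O saline libraries. GF saline mice had the widest range of both the list and Egr3. The list's median log2 difference between GF saline and H2O saline mice was -0.32, with 2 of the 14 genes called lower and 0 higher. The part of this list in the group differences of Egr3 was not tested.

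**Figure D5:**
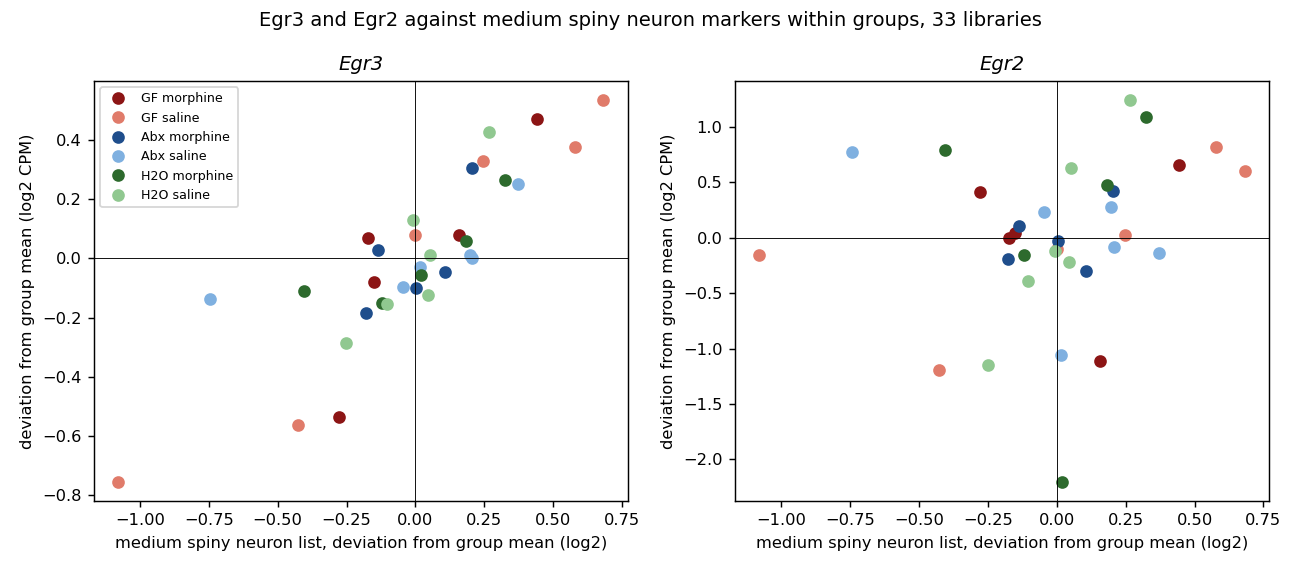
Deviation from the group mean (log2 CPM) of Egr3 at the left and Egr2 at the right, against the same deviation of the mean of 14 medium spiny neuron markers, 1 point a library, coloured by group. Egr3 climbs with the markers (r = 0.854), and Egr2 scatters widely (r = 0.221).

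The genes whose deviations were most like those of each member are given as a description over the 33 libraries, out of 12431 genes with a mean of at least 2 CPM. Junb was the most alike for Egr2 (r = 0.920), Nr4a1 (0.947) and Npas4 (0.900), and Dusp1 for Arc (0.931). Egr1 was followed by Spry2, Fosb and Klf10 (0.861 to 0.860), and Egr4 by Fosb, Junb and Dusp1 (0.887 to 0.822). Egr3 was most like Bcl11b (0.955), Homer1 (0.952) and Actn1 (0.950). Nr4a2 was most like Nxph3 (0.956), Ctgf (0.938) and Cplx3 (0.934). Nr4a3 was most like Fosl2 (0.831), Bcl6 (0.755) and Ddx54 (0.729).

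Other activity genes were counted from a list of 28 rapidly induced genes. In GF saline against H2O saline mice 6 were higher and 2 lower, with a median of 0.29 against 0.01 over all genes. Those 8 of 28 stand beside 32.9% of all genes called there, so the share called is not particular to the list. Fosb, a member of the AP-1 family that builds up with repeated stimulation, was higher by 1.06 ± 0.18 (adjusted p = 7.12e-05), Fosl2, a related AP-1 gene, by 1.28 ± 0.20 (adjusted p = 2.8e-05) and Crem, a modulator of cyclic AMP transcription, by 0.75 ± 0.10 (adjusted p = 6.86e-06). Jund (-0.38 ± 0.06, adjusted p = 3.48e-05) and Ier5 (-0.61 ± 0.17, adjusted p = 0.00611) were lower. In GF saline against Abx saline mice, with 27.4% of all genes called, 4 were higher and 3 lower, among them Crem (0.76 ± 0.10) and Fosb (0.87 ± 0.18) on the higher side and Ier2 (-0.87 ± 0.33) on the lower. In GF morphine against H2O morphine mice (5.86% of all genes called) 2 were higher (Fosb, 1.01 ± 0.19, and Crem, 0.55 ± 0.12) and 1 lower (Jun, -0.52 ± 0.14). In Abx morphine against H2O morphine mice, where 10.3% of all genes were called, 3 were higher and 0 lower (Maff, 1.22 ± 0.28, Csrnp1, 0.65 ± 0.17, and the clock gene Per1, 0.50 ± 0.13). In GF morphine against Abx morphine mice 3 were higher and 10 lower, beside 28% of all genes called and 13.3% lower, with a median of -0.39, and Per1 was among the lower ones (-0.57 ± 0.13). Of the 10 cortical markers 8 were lower there and 0 higher (median -4.07). Higher, with 0 lower, were 6 of 6 microglia, 2 hypothalamus and pituitary, 2 astrocyte, 1 oligodendrocyte and 1 endothelial genes. The part of these markers in the counts of activity genes was not tested. Between Abx saline and H2O saline mice 0 of the 28 rapidly induced genes were called, in morphine against saline 1 was called (Maff in Abx mice, 0.94 ± 0.27, adjusted p = 0.0369), and 0 were called in GF and in H2O mice.

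Among 18 activity effectors and later-response genes, 6 were higher and 0 lower in GF than in H2O mice given saline, where 32.9% of all genes were called and 18% were higher. Rasd1, a small GTPase gene also induced by glucocorticoids, was higher by 1.06 ± 0.20 (adjusted p = 0.000187), the phosphatase gene Dusp4 by 0.89 ± 0.17 (adjusted p = 0.000246) and the stress peptide gene Crh by 1.59 ± 0.36 (adjusted p = 0.00131). Crh is also a gene of the hypothalamus, and beside it 3 of the 5 tested hypothalamus and pituitary markers were higher, with a median of 2.13, whose part in its difference was not tested. Rasd1 was also higher in Abx saline than in H2O saline mice (1.11 ± 0.19, adjusted p = 0.00696), the 1 gene of this list called there (0.116% of all genes were), and in Abx morphine than in H2O morphine mice (1.30 ± 0.20, adjusted p = 5.75e-05). Among 20 upstream factors and kinases, 1 was higher and 2 were lower between GF and H2O mice given saline, again beside 32.9% of all genes: Creb1, the gene of the factor that binds the CRE, by 0.56 ± 0.11 (adjusted p = 0.000375), the ERK kinase gene Mapk3 (-0.24 ± 0.05) and the NMDA receptor gene Grin1 (-0.23 ± 0.07). Among 7 partners and inhibitors, 2 were higher and 2 lower in the same comparison, beside 18% and 14.9% of all genes. The retinoid X receptor genes, whose products pair with Nr4a1 and Nr4a2, split, with Rxra higher (0.29 ± 0.08) and Rxrb (-0.23 ± 0.05) and Rxrg (-0.70 ± 0.21) lower, and Arnt, which codes for a partner of PAS-family factors, was higher (0.30 ± 0.09). Nab1 and Nab2, the co-repressors of EGR proteins, were not called there.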

How the data were processed

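Bulk polyA RNA of nucleus accumbens was sequenced from 33 mice in 6 groups. The count table deposited by the authors holds raw reads per gene, and FastQC, STAR 2.4.0 and edgeR are named in the submitters' processing notes. For the build, the gene models and strandedness of the counting, nothing is stated in the labels or file headers. The 5 tally rows (19.3 to 35.4% of the tallied reads) were left out. Their share was 22.1 to 35.4% in GF morphine, 19.3 to 30.1% in GF saline and 20.6 to 26.4% in conventional libraries. A second deposited table, normalized by the authors, was not used.

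Counts were filtered with filterByExpr (minimum count 10) and tested with edgeR 4.0.16 (R 4.3.3) by its quasi-likelihood test, with TMM factors, in 1 fit of 6 group means (27 residual degrees of freedom) and Benjamini-Hochberg adjustment over 14607 genes. SE is the log2 fold change divided by the root of F. Log2 CPM used a prior count of 0.5. The steps were tested on simulated data with known changes. Correlations were tested by 100000 permutations within groups. The 9 genes and all lists were chosen with earlier results of these data known, and the genes named from a list are those with the smallest p, up to 3 in each direction. Libraries are separate mice by their titles, and no 2 of the same group agreed within sampling noise (chi-square per degree of freedom at least 3.19 over 75 pairs within groups). Pairs across groups were not checked. DESeq2 1.42.0, limma voom 3.58.1, other scalings and filters and leaving out each library were tried as alternatives.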

Additional observations from a re-analysis of the deposited data

Results flagged for a closer look

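Each gene was checked in each group for a library far from the others, by the gap to its neighbour over the group's range. Past the 95% critical value were 8 of 54 checks, where about 1 in 20 independent checks of normally distributed values would be flagged. The checks used CPM on its linear scale, and the genes vary together within mice. The count of 8 therefore cannot be set against that share. Abx saline replicate 5 stood high for 3 genes, with 355 CPM of Egr1 against 225 to 258 CPM in the other mice of the group, 244 CPM of Arc against 95.7 to 143 CPM, and 24.8 CPM of Nr4a3 against 15.2 to 18.3 CPM. That library also had the highest cortical marker sum of all 33 (1614 CPM), and the part of this in its levels was not tested. Nr4a2 stood high in GF saline replicate 1, at 39.7 CPM against 2.12 to 4.81 CPM, and in H2O morphine replicate 4, at 59.5 CPM against 1.99 to 5.90 CPM. Egr3 was high in Abx saline replicate 3, at 131 CPM against 99.97 to 111 CPM. Egr4 was high in H2O saline replicate 5, at 59.9 CPM against 35.1 to 44.0 CPM. Npas4 was low in GF morphine replicate 2, at 4.55 CPM against 24.4 to 32.4 CPM.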

How the results depend on the processing

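Across the alternatives, 297 of the counts (of called members, called slopes or correlated pairs) kept within 1.5 times of the reported count and 26 moved. Counts of 0 that stayed at 0 were among those kept, as was a change from 4 to 6. The tally therefore does not measure how well single calls held. In GF saline against H2O saline mice the count of 4 stayed between 3 and 6, with 3 under a replicate block. In Abx saline against H2O saline mice it was 1 in place of 0 with DESeq2 and with limma voom. In GF saline against Abx saline mice it was 5 in place of 3 with the cortical covariate, and 1 to 3 with single mice left out (1 without Abx saline replicate 1 or 2). In Abx morphine against Abx saline mice it was 1 in place of 0 in a fit of only those groups. In GF morphine against H2O morphine mice it was 0 in place of 1 in a fit of only those groups, 2 with DESeq2 and limma voom, and 1 to 2 with single mice left out. In Abx morphine against H2O morphine mice it was 0 in place of 1 under the replicate block and with the cortical covariate, 4 with limma voom, and 0 to 2 with single mice left out (2 without H2O morphine replicate 4). In GF morphine against Abx morphine mice it was 2 in place of 1 in a fit of only those groups and with limma voom, and 0 to 1 with single mice left out. The cause of these changes was not tested. The cortical covariate reversed Nr4a2 to 1.203 in GF saline against Abx saline and to 1.101 in GF morphine against Abx morphine mice. It also turned the sign of Nr4a2 where no value was called, to 0.55 in GF saline against H2O saline, 0.34 in GF morphine against GF saline, 1.03 in GF morphine against H2O morphine, -0.07 in Abx morphine against H2O morphine, 0.22 for the average morphine difference and 0.48 for the GF minus H2O difference of responses. Over the 9 genes and 12 contrasts 27 of 108 signs turned. A correction for GC content and length, added after seeing the data, brought Egr4 past the threshold in GF saline against H2O saline (0.91, adjusted p = 0.00237) and against Abx saline mice (0.63, adjusted p = 0.0317), where it called 2675 genes in all in place of 4812 and 2291 in place of 3996. Counts over all genes moved by over 1.5 times in the other comparisons too: 4 to 180 in place of 17 (Abx saline against H2O saline), 554 to 2433 in place of 791 (Abx morphine against Abx saline), 329 to 1199 in place of 856 (GF morphine against H2O morphine), 1303 to 3551 in place of 1508 (Abx morphine against H2O morphine), 1828 to 4724 in place of 4093 (GF morphine against Abx morphine), 0 to 1325 in place of 0 (H2O morphine against H2O saline), 0 to 1 in place of 1 (GF morphine against GF saline) and 4 to 935 in place of 140 (average morphine difference). They were 0 to 234 in place of 0 for the GF minus H2O difference of responses, 9 to 171 in place of 16 for the Abx minus H2O one and 1090 to 1677 in place of 1723 for the cortical slope.

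Over 66 pairs of same-numbered libraries of different groups the correlation of deviations averaged 0.00096 (-0.450 to 0.425). Pairs with different numbers were not computed beside them, so this mean cannot decide whether some replicate numbers pair libraries. With the replicate block Egr3 in GF saline against H2O saline mice was 0.32 (adjusted p = 0.229), Nr4a3 in Abx morphine against H2O morphine mice 0.89 (adjusted p = 0.0683), and the cortical slope of Nr4a3 0.17 (adjusted p = 0.188). Depth limits Nr4a2 most, with 10 reads in its lowest library.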
